A study of Mus musculus with 8 samples.

Results

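The change in total RNA between neural progenitor cells (NPC, 6 days in vitro, DIV) and neural precursors in which neurons begin to form (NPC/Neu, 10 DIV) was measured on 2 arrays, 1 for each stage, out of the 8 arrays of the series. The members are all genes read by the non-control spots of these arrays. Of 21983 genes on the array that carry a RefSeq symbol, 15991 were well above background on at least 1 of both arrays and are described here. The cells were E14Tg2A, a mouse ES cell line of 129/Ola origin without added alleles or reporters in the labels. They had been driven to neural fate in a chemically defined minimal medium after withdrawal of leukemia inhibitory factor. NPC were taken at 6 DIV. NPC/Neu came from cells dissociated a second time, plated on poly-ornithine and laminin and grown for another 4 days in the medium with the supplement N2 but without B27, so the passage of time, the replating and the loss of B27 cannot be told apart. The RNA on an array was a pool of 3 independent experiments on this single line, and RNA bound to Argonaute (Ago-RNA) was hybridized at the same stages to arrays of its own.

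Neural progenitors divide next to a ventricle, keep Notch signaling active and produce neurons after a brief burst of proneural transcription factors of the basic helix-loop-helix (bHLH) family, such as Neurog2. The newborn neuron leaves the cell cycle, switches on tubulins, stathmins and RNA-binding proteins of the Elavl family, and starts to grow an axon under the guidance of receptors such as Robo and Dcc. Synaptic and ion channel genes follow. Before and during this step progenitors carry positional identities along the neural tube, set by BMP and Wnt ligands from the dorsal midline, by Sonic hedgehog from the ventral midline, and by FGF and retinoic acid along the length of the tube.

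Values are normalized log2 signals, and a change is the NPC/Neu signal minus the NPC signal, so that 1 stands for a doubling. With 1 array a side no test across arrays was possible, and "rose" and "fell" are used here only for genes that differed by 2-fold or more. The error that could be measured is that of a spot. Over 294 probes printed in 10 spots each and well above background, the spot SD of a log2 change was 0.22, which covers neither the cultures nor the labeling. Between the stages 1028 of 15991 genes rose (6.43%) and 821 fell (5.13%). Past a log2 change of 2.5, the cutoff the study used between stages, 120 genes rose (0.75%) and 58 fell (0.363%). The median change of all genes was -0.05, and 88.44% of them stayed within 2-fold. When only the median signal of both arrays was matched, in place of their whole distribution, the share of 2-fold changes that were rises went from 55.6% to 44.4% and the median change to -0.18, so the balance of rises and falls depends on the scaling. In a bulk culture, fewer cells of a type and less RNA per cell cannot be told apart.

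**Figure D1:**
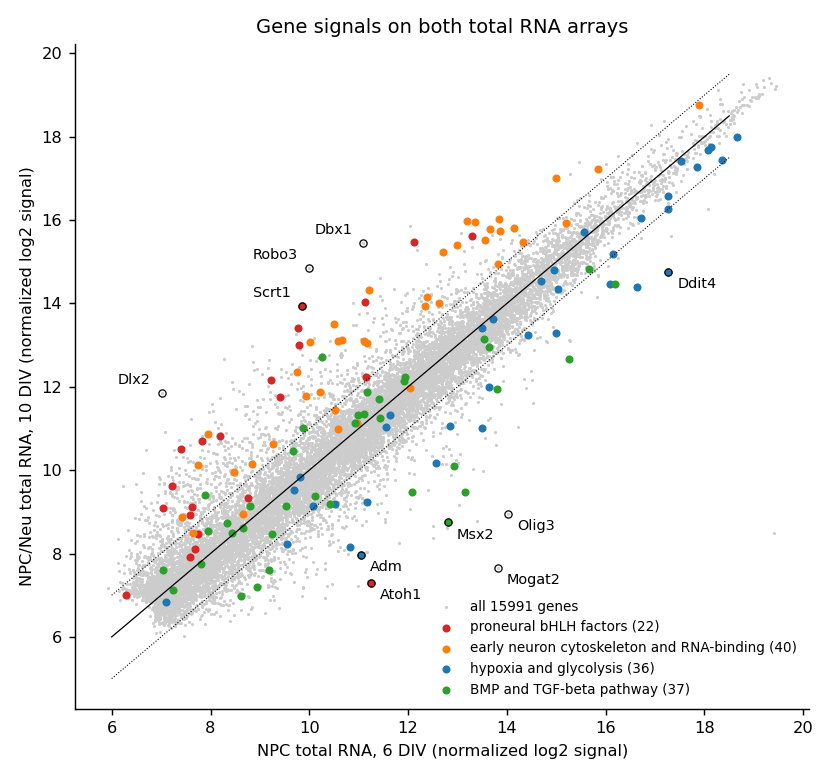
Each point is a gene, with its normalized log2 signal on the NPC array (x axis) and on the NPC/Neu array (y axis). Colored points are members of 4 gene lists, open circles mark the named genes, the solid line is no change and the dotted lines are 2-fold. Most proneural factors (16 of 22) and early neuron genes (32 of 40) lie above the upper dotted line, and many hypoxia and BMP pathway genes lie below the lower one.

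The markers bore out the labels in part. Of 11 neuron markers, 10 rose, and the exception was Snap25, a SNARE protein, which went from 14.24 to 15.01. Syt1, 1 of the 10, fell short of 2-fold under median scaling (0.92). All 8 neural progenitor markers were well above background at both stages, and of these only Fabp7, a fatty acid-binding protein of radial glia, rose, from 15.46 to 17.38. The progenitor factor Sox2 stood at 13.64 and 13.87, Sox1 at 10.59 and 10.88, and Hes5, a Notch effector, at 16.28 and 16.19. All 11 neuron markers were well above background in NPC as well, so cultures of both stages held progenitor and neuron transcripts side by side. In ES cells Stmn2 was at 14.44 and Gap43 at 13.14, while Dcx was at 6.47. The astrocyte marker Gfap was at 7.67 and 7.85, and the mature oligodendrocyte marker Mbp at 9.91 and 9.71.

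The pluripotency markers were far below their ES levels at both stages. Pou5f1 (Oct4) stood at 7.98 in NPC and 8.31 in NPC/Neu, against 15.21 in ES cells, and Nanog at 10.20 and 10.50, against 12.51. Summed over the 6 pluripotent markers, the log2 signal was 11.99 in NPC and 12.94 in NPC/Neu. Of the other cells a culture could hold, S100b (astrocytes), Mixl1, Gata6 and Afp (mesoderm and endoderm), Cdh5 and Ptprc (endothelium and blood) and Cx3cr1 (microglia) were not well above background on either array. Other members of these lists were: 4 of 5 astrocyte, 5 of 8 mesoderm and endoderm, 3 of 6 endothelium and blood, 2 of 3 microglia and all 5 epithelium markers had a signal well above background on at least 1 array. The brightest were Kdr (12.08 and 11.94), Aldh1l1 (10.94 and 9.72), Csf1r (10.61 and 10.66), Trp63 (10.17 and 10.59) and, of mesoderm and endoderm, T (9.73 and 9.31), Foxa2 (9.55 and 10.10) and Eomes (8.69 and 11.33). The part of such cells in the results was not tested. The 10 crest and mesenchyme markers had a summed log2 signal of 15.10 in NPC and 14.65 in NPC/Neu, with Col3a1 rising from 9.13 to 11.41 and Twist1 falling from 9.95 to 8.69.

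The largest rise among annotated genes was that of Robo3, on mm9 chromosome 9 from 37223254 to 37240760, read by a probe in a coding exon. Robo3, the receptor that lets commissural axons cross the midline, went from 9.99 to 14.85, which is 29.1-fold. Dlx2, a homeobox factor of GABAergic forebrain neurons on chromosome 2 from 71381466 to 71384811, went from 7.01 to 11.85. In ES cells Robo3 was at 7.81 and Dlx2 at 6.64, so the NPC level of Dlx2 was still close to that of ES cells.

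Dbx1, a homeobox factor of ventral interneuron progenitors (chromosome 7, 56886869 to 56892219), rose from 11.09 to 15.46. Scrt1, a zinc finger repressor of newborn neurons (chromosome 15, 76346633 to 76352559), rose from 9.85 to 13.93. The 15 largest rises also hold Neurog2 (9.78 to 13.41), Lhx1 (7.60 to 11.22) and Prdm13 (7.08 to 10.93), a factor that biases dorsal spinal progenitors to inhibitory neurons.

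Other large rises were of membrane and secreted proteins. Cnr1, the cannabinoid receptor, went from 8.83 to 12.98, and Islr2, a neuronal leucine-rich repeat protein, from 12.04 to 15.85. Cacna2d1, a calcium channel subunit, went from 8.86 to 12.58. The neuropeptide genes Cartpt and Scg2 rose from 9.73 to 13.27 and from 8.03 to 11.59. Klhl35 (8.27 to 12.67) and the fatty acid transporter Slc27a2 (8.43 to 12.12) are also among them. Slc27a2 differs from the rest in its history, since it stood at 14.43 in ES cells and 14.90 in ELA, the epiblast-like aggregates of 2 DIV, and its level in NPC/Neu was a partial return.

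Genes that were well above background on the NPC/Neu array alone allow only a lower bound. Gad2, the GABA-producing enzyme of inhibitory neurons, was at least 13.3-fold higher in NPC/Neu, and the homeobox gene Dlx1 at least 9.14-fold. Slitrk1, a synaptic adhesion protein, was at least 7.52-fold higher, Gjd2, the neuronal gap junction protein, at least 7.36-fold, Calb2 (calretinin) at least 6.69-fold and Acsbg1 at least 5.53-fold. Each of these 6 also rose in Ago-RNA, by between 2.82 for Calb2 and 3.95 for Gad2. The last members of the 8 brightest such genes, Defb26 (at least 7.03-fold) and Bcl2l14 (at least 6.61-fold), did not: their Ago-RNA changes were -0.46 and -0.27. Of all genes, 79 had such a bound of 2-fold or more in NPC/Neu, and 44 in NPC.

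The largest fall among the genes named by the rule was that of Mogat2, an enzyme of triglyceride synthesis on chromosome 7 from 106367594 to 106387129. It went from 13.82 to 7.66, a 71.6-fold fall. Olig3, a bHLH factor of dorsal progenitors (chromosome 10, 19076366 to 19078412), fell from 14.03 to 8.96, and Atoh1, the bHLH factor of the most dorsal progenitors, from 11.24 to 7.29. Atoh1 was the 1 proneural factor that fell. Msx2 and Msx1, homeobox targets of BMP, fell from 12.80 to 8.75 and from 13.15 to 9.48.

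Of the further falls, Qprt (NAD synthesis) fell from 12.50 to 8.37, Pygl (glycogen breakdown) from 13.04 to 9.17, Ppp1r3c (a glycogen-targeting phosphatase subunit) from 11.19 to 7.34 and Abcg5 (a sterol transporter) from 10.99 to 7.22. Cdon, a Sonic hedgehog co-receptor, fell from 13.32 to 10.02, and the neuropeptide gene Cck from 11.82 to 8.25. Prrx2 (12.50 to 8.66), Wdr86 (13.39 to 8.79), Rln1 (12.79 to 8.60) and Wfikkn1 (13.51 to 9.99) complete the 15.

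Genes well above background in NPC alone were led by Ttr, transthyretin, at least 10.4-fold lower in NPC/Neu, Cyp26a1, the enzyme that clears retinoic acid, at least 6.04-fold, and Cdx2, a factor of the posterior embryo, at least 5.30-fold. Ppp1r16b, Clec18a, Thbs4, Myl2 and Efhc2 followed, with bounds between 3.45-fold for Myl2 and 4.95-fold for Ppp1r16b. The Ago-RNA of Myl2 was unlike the other 7, with a change of 0.04.

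The lowest value of all came from 4930520P13Rik, named here because its value stood out. Its log2 signal was 19.40 on the NPC array and between 7.34 and 8.49 on the other total RNA arrays, and its Ago-RNA was 7.55 in NPC and 7.60 in NPC/Neu. A single probe reads it, and the cause was not tested.

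**Figure D2:**
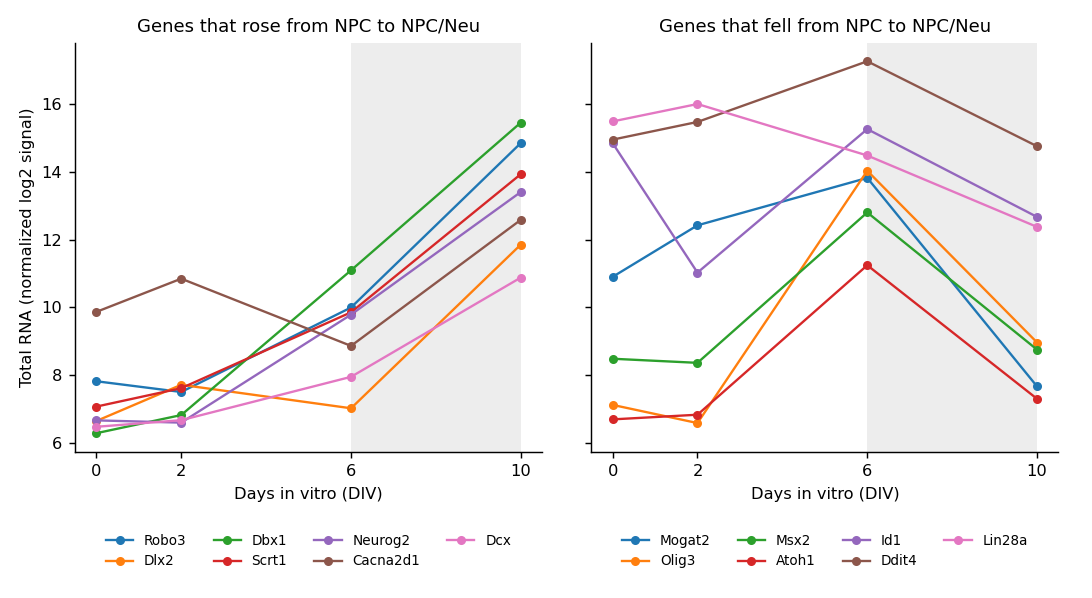
Normalized log2 signal in total RNA (y axis) at 0, 2, 6 and 10 DIV (x axis), for 7 genes that rose (left) and 7 that fell (right) between NPC and NPC/Neu, the interval shaded in gray. Each point is 1 array; Dlx2 was near its ES level until NPC, while Olig3, Msx2 and Atoh1 peaked in NPC.

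The earlier stages give these changes a history. A gene that rose cannot have its highest level in NPC, nor one that fell in NPC/Neu, so the counts of peaks are a description only. Of the 1028 genes that rose, 899 had their highest level of all 4 stages in NPC/Neu, as had 30.3% of all genes, and of the 821 that fell 417 had it in NPC, as had 22.6% of all genes. Genes at least 2-fold higher in NPC than in ES cells made up 35.1% of the rises, 36.9% of the falls and 16.7% of all genes. Genes at least 2-fold lower in NPC than in ES cells made up 13.6% of the rises, 20.3% of the falls and 12.6% of all genes. Olig3, for example, was at 7.11 in ES cells and 6.58 at the ELA stage before it reached 14.03 and fell back to 8.96. Lin28a declined in steps, from 15.49 in ES cells to 14.48 and then 12.37.

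Of 22 proneural bHLH factors and their early partners, 16 rose and 1 fell, with a median change of 2.34. Scrt1 and Neurog2 led. Ebf3 (12.13 to 15.47), Ebf2 (11.13 to 14.03) and Ebf1 (9.41 to 11.75), which act downstream of proneural factors, all rose, as did Insm1 (13.29 to 15.63), a factor of cells about to leave the cycle. Bhlhe22 (8.18 to 10.83) and Myt1l (7.05 to 9.09) rose as well. Neurod2 rose from 7.40 to 10.50 and Neurod1 from 7.63 to 9.11. The class is thus represented from the first commitment factors to those of maturing neurons.

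Of 40 early neuron genes of the cytoskeleton and of RNA-binding proteins, 32 rose and 0 fell, with a median of 1.81, the largest share of rises of the lists. Tubb3, the neuronal tubulin, went from 14.99 to 17.01. Elavl3 (HuC) rose from 11.21 to 14.33, Mapt (tau) from 10.01 to 13.07, Dcx (doublecortin) from 7.94 to 10.88, and Gap43, a growth cone protein, from 13.19 to 15.97. Neurofilament genes rose in step, with Nefl at 13.84 and 16.03, Nefm at 10.57 and 13.10 and Ina at 10.49 and 13.51. Uchl1, a neuronal ubiquitin hydrolase, rose in total RNA from 12.63 to 14.01 while its Ago-RNA changed by -0.55.

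Synaptic genes moved less. Of 29 genes of synaptic vesicles and SNARE complexes, 13 rose and 0 fell, with a median of 0.83. Syn1 (9.20 to 11.72), which coats vesicles, and Bsn (7.45 to 9.63), an active zone scaffold, were among the rises. Syp, a vesicle membrane protein, stayed within 2-fold at 12.01 and 12.58. Of 29 voltage-gated channel genes, 13 rose and 1 fell, with a median of 0.90. The sodium channel Scn3a, the form of immature neurons, rose from 8.35 to 10.67, and the calcium channel Cacna1c from 8.31 to 10.66. Kcna1, a potassium channel, fell from 12.49 to 10.35. Of 31 neurotransmitter receptor genes, 10 rose and 0 fell, with a median of 0.67. Chrnb2, a nicotinic subunit (8.21 to 10.88), and Grm8, a metabotropic glutamate receptor (7.31 to 9.53), were among the rises. A further 16 receptor and 11 channel genes were not well above background on either array and are left out. Across the ways of processing, rises numbered 11 to 18 for synaptic, 11 to 17 for channel and 7 to 19 for receptor genes, and up to 2 receptor genes fell.

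Of 30 genes that set neurotransmitter identity, 6 rose and 2 fell, with a median of 0.31. They include genes of both the glutamatergic and the GABAergic fate. Slc17a6, the vesicular glutamate transporter, rose from 8.65 to 11.83, and Slc32a1, the vesicular GABA transporter, from 7.34 to 9.60, although its 2 probes changed by -0.06 and 4.58. Gad1 was above background in NPC/Neu alone, where it reached 8.43. Ddc, an enzyme of monoamine synthesis, fell from 9.55 to 7.68, and Isl2, a motor neuron factor, from 8.75 to 7.26. Th, of dopamine synthesis, was at 9.52 and 10.15. Chat, of acetylcholine synthesis, was at 6.96 and 7.24.

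Axon guidance genes went both ways. Of 49, 15 rose and 4 fell, with a median of 0.26. Besides Robo3, its relatives Robo1 (11.55 to 13.73) and Robo2 (8.61 to 10.07) rose, as did the netrin receptor Dcc (10.74 to 12.06) and the ephrin receptor Epha3 (9.43 to 12.42). The adhesion molecule Chl1 rose from 7.84 to 10.81. In contrast, the ephrin receptor Epha7 fell from 12.12 to 9.91, the repulsive netrin receptor Unc5c from 11.42 to 9.66, and the semaphorin Sema3c from 10.98 to 9.34.

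**Figure D3:**
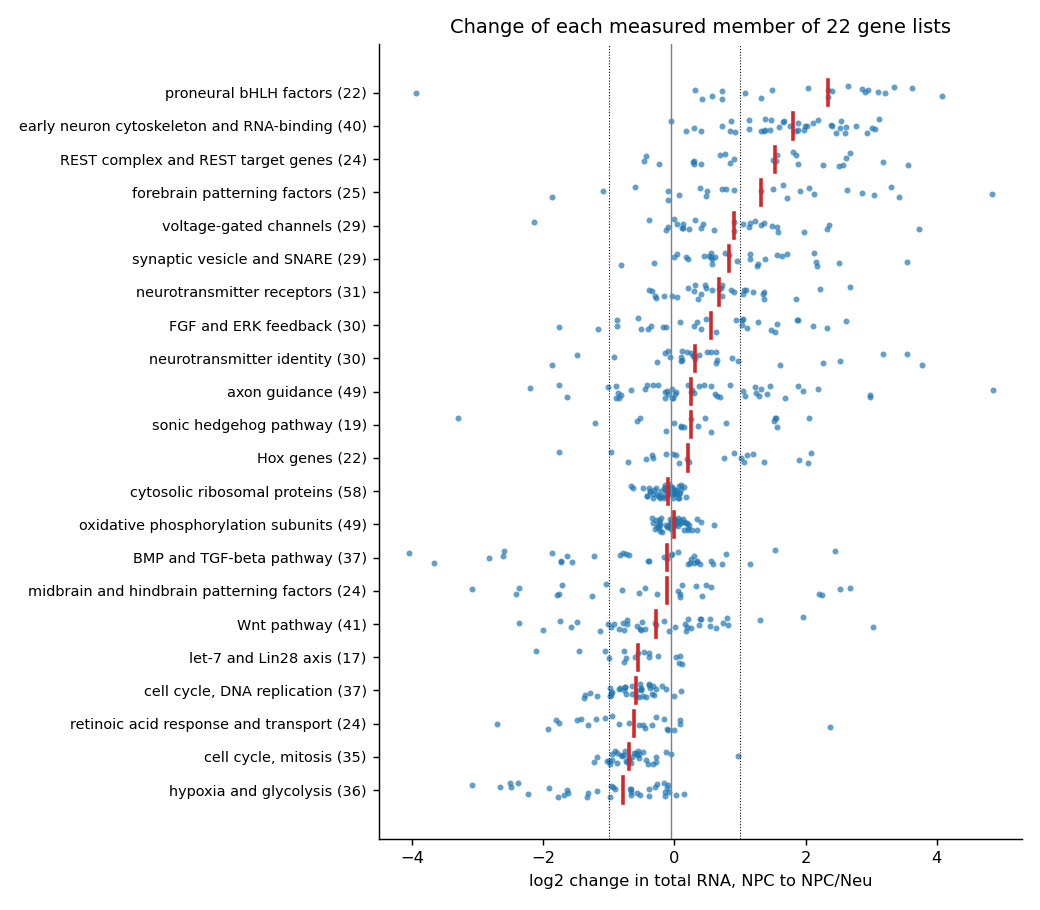
Each point is a measured gene of the list named on the y axis (number measured in parentheses), placed by its log2 change from NPC to NPC/Neu (x axis). The red bar is the list's median, the gray line the median of all genes and the dotted lines 2-fold; points are spread vertically for legibility only. Medians run from 2.34 for proneural factors to -0.79 for hypoxia and glycolysis, and the ribosomal and oxidative phosphorylation genes stay within 2-fold.

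Positional identity also moved. Of 25 forebrain patterning factors, 13 rose and 2 fell, with a median of 1.32, whereas of 24 midbrain and hindbrain factors 4 rose and 8 fell, with a median of -0.11. Dlx2, Tbr1 (7.97 to 11.40), Gsx1 (8.10 to 11.15), Bcl11b (8.15 to 11.01) and Eomes (8.69 to 11.33) rose. Eomes is a factor of intermediate progenitors and also marks mesoderm, and which cells its signal came from was not tested. The probes of Tbr1, a factor of early cortical neurons, changed by 1.58 and 5.27. Egr2 (Krox20), a hindbrain segment factor, had the largest fall of the midbrain and hindbrain list, from 11.14 to 8.05. Lmx1a, a roof plate factor, fell from 13.61 to 11.20, Wnt1 from 11.15 to 8.78 and Fgf8 from 10.36 to 8.60. En2, of the midbrain and hindbrain junction, rose from 11.94 to 14.20.

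Of 22 Hox genes, which pattern the hindbrain and spinal cord, 8 rose and 1 fell, with a median of 0.20. The rises were led by Hoxb7 (7.91 to 10.00), Hoxb6 (7.75 to 9.79) and Hoxb8 (7.06 to 8.96), neighbors in the Hoxb cluster.

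Signaling genes split by pathway. Of 37 genes of the BMP and TGF-beta pathways, 11 fell and 3 rose, with a median of -0.11. Ligands, antagonists and targets fell alike. Bmp6 went from 12.09 to 9.47, Bmp4 from 13.80 to 11.94, and the antagonist Fst from 12.94 to 10.11. The targets Id1 and Id3, inhibitors of proneural factors, went from 15.26 to 12.67 and from 16.19 to 14.46, and Msx1 and Msx2 fell as above. Id4 went the other way, from 10.26 to 12.71. Bmp2 rose from 7.88 to 9.41 and Tgfb2 from 9.87 to 11.02. Smad6, a feedback inhibitor, fell from 10.41 to 9.18.

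Of 41 Wnt pathway genes, 7 fell and 3 rose, with a median of -0.29. The ligand Wnt1, the secreted antagonists Sfrp1 (10.91 to 8.91) and Frzb (9.67 to 8.09), and the receptor Fzd10 (14.81 to 13.07) fell, while the antagonists Wif1 (7.58 to 10.61) and Dkk2 (7.55 to 9.51) rose. Of 19 Sonic hedgehog pathway genes, 5 rose and 2 fell, with a median of 0.25. Shh was above background in NPC/Neu alone, at 8.93. Its targets Gli1 (11.90 to 13.42) and Hhip (7.60 to 9.16) rose.

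Of 30 FGF and ERK feedback genes, 13 rose and 2 fell, with a median of 0.55. The rises took in the feedback inhibitors Spry1 (13.08 to 15.70), Spry4 (7.11 to 9.21), Il17rd (12.65 to 14.54) and Dusp4 (9.88 to 11.74) and the transcriptional effectors Etv4 (11.32 to 13.65) and Etv5 (12.97 to 14.25). Among ligands Fgf18 (10.02 to 11.56) and Fgf9 (7.67 to 9.14) rose while Fgf8 fell. The number of rises ranged from 8 to 13 across the ways of processing.

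Of 24 genes of retinoic acid response and transport, 9 fell and 1 rose, with a median of -0.62. Crabp2, a carrier protein for retinoic acid, was among the brightest signals, at 18.07 in NPC and 16.26 in NPC/Neu, and Crabp1 fell from 15.85 to 14.65. The receptor Rarg fell from 10.24 to 8.92, the uptake protein Stra6 from 9.37 to 7.89 and the carrier Rbp4 from 9.88 to 7.94. Aldh1a2, which makes retinoic acid, fell from 9.02 to 7.59, while Aldh1a3, which makes it too, was above background in NPC/Neu alone, at 8.85.

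With the processing used here, 3 of 35 mitosis genes fell and 0 rose, with a median of -0.70. Of all genes, 5.13% fell and 6.43% rose. A change below 0 was found for 34 of the mitosis genes, against 54.2% of all genes. Of 37 DNA replication genes 4 fell and 0 rose, with a median of -0.58. Across the ways of processing, the number of falls was between 3 and 13 for mitosis and between 4 and 11 for DNA replication. Bub1, a checkpoint kinase, went from 13.89 to 12.70, Kif2c from 11.78 to 10.56 and Ccne1 from 12.46 to 11.16. Cdc25b, the phosphatase that starts mitosis, was the 1 mitosis gene above 0, at 13.75 and 14.73. Of 21 genes of cell cycle exit, 5 rose and 1 fell. Gadd45g rose from 15.28 to 17.11, Cdkn1c (p57) from 15.48 to 16.54 and Cdkn2c (p18) from 8.81 to 10.16.

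Regulators of the switch from progenitor to neuron moved as well. Lin28a, which blocks maturation of the let-7 miRNAs, fell from 14.48 to 12.37, its relative Lin28b from 12.83 to 11.77 and the let-7 target Hmga2 from 13.41 to 11.96. Of the 17 genes of this axis, 4 fell and 0 rose, with a median of -0.56. Of 25 splicing regulators, 9 rose and 1 fell. Srrm4, the neural microexon factor, rose from 10.89 to 13.48, while the repressor Ptbp1 stood at 13.66 and 13.13 and its neural relative Ptbp2 at 12.63 and 12.73. Of 19 BAF chromatin remodeling subunits, 5 rose and 0 fell, among them Smarcd3 (11.55 to 12.88), Dpf1 (9.83 to 11.11) and Actl6b (BAF53b), above background in NPC/Neu alone at 8.10. The progenitor subunits Actl6a (14.41 and 14.18) and Phf10 (13.20 and 12.59) stayed within 2-fold.

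Of 24 genes of the REST repressor complex and its neuronal targets, 13 rose and 0 fell, with a median of 1.53. The targets Scg2, Celsr3 (11.43 to 14.61), Scg3 (11.47 to 14.09), Gdap1 (8.30 to 10.88) and Vgf (9.50 to 11.77) rose. Rest itself stood at 11.44 in NPC and 10.98 in NPC/Neu, against 13.65 in ES cells, and its partner Rcor1 at 10.74 and 11.02. Of 14 genes of the Argonaute and miRNA pathway, 1 rose, Ago4, from 9.25 to 10.32, against 6.43% of all genes. Ago2 was at 12.99 and 13.02 and Dicer1 at 13.16 and 12.92.

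REST binds a long element with a pair of spaced blocks. The letters GCACCNNGGACAG, its core without gaps or substitutions, were searched on both strands in RefSeq promoters of GRCm38.p6, taken as 250 bases before to 50 after a gene's start. They were found for 28 of 27025 genes (0.1%), for 19 of 12482 measured genes, for 5 of 756 genes that rose and have a promoter there, and for 0 of 612 that fell. The 5 were Gad2, Gria2, Robo2, Scamp5 and Ttc9b. Of 18 genes of the REST list with a promoter there, 1 held the letters, and 9 of the 18 rose, with that 1 among them. Promoters of Gad2, chr2:22622077-22622376 on the plus strand, and of Gria2, a glutamate receptor gene above background in NPC/Neu alone at 8.42, chr3:80802786-80803085 on the minus strand, are printed because both genes went from background to a clear signal. Capitals mark the match, which in Gria2 reads on the opposite strand.
Gad2: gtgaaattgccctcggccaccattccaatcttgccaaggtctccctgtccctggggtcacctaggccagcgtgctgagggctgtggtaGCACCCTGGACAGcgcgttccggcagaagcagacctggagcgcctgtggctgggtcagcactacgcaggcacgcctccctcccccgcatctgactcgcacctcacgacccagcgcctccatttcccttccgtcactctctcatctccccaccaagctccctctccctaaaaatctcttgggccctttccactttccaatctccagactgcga
Gria2: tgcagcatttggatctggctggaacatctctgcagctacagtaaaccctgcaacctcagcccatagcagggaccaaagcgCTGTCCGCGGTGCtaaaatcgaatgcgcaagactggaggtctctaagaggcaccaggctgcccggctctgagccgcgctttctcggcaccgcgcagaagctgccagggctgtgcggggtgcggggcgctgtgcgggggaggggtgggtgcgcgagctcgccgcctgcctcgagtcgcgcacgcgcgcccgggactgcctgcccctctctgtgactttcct
A match is a description of these letters and not evidence of binding.

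Of all lists, hypoxia and glycolysis had the most falls, and no rise. Of 36 genes, 14 fell and 0 rose, with a median of -0.79, and the number of falls was between 14 and 23 across the ways of processing. Adm, adrenomedullin, fell from 11.05 to 7.97, which is 8.50-fold. Ddit4, an inhibitor of mTORC1 that hypoxia induces, fell from 17.27 to 14.76, Pdk1, which keeps pyruvate out of the mitochondrion, by 5.66-fold from 13.50, and Slc2a3, a glucose transporter, from 16.62 to 14.39. Egln3, a HIF prolyl hydroxylase and a HIF target, went from 11.16 to 9.24, Ankrd37 from 12.56 to 10.18 and Bnip3, a mitophagy receptor, from 14.99 to 13.30. Of the glycolytic enzymes, Hk2 (hexokinase) fell from 13.64 to 11.99, while Ldha was at 17.26 and 16.28 and Aldoa at 18.66 and 18.01. Pgk1, whose probe is placed on another chromosome than the gene, was at 18.35 and 17.44. By contrast, none of 49 oxidative phosphorylation subunits and none of 58 cytosolic ribosomal proteins passed 2-fold, with medians of -0.01 and -0.10. In other ways of processing up to 4 of the ribosomal proteins fell.

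ACGTG, the core that hypoxia-inducible factors bind, was searched in the same promoter windows on both strands. It was present for 22 of 33 genes of this list with a promoter (66.67%), against 27.5% of the genes measured and 21.78% of all genes in the table. Within the list it did not mark the genes that fell: 8 of 12 that fell had it, and 14 of 21 that stayed within 2-fold had it too. Promoters of 4 genes that fell are printed with the match in capitals, to show where it lies: Ankrd37 (chr8:45999801-46000100, minus strand), Ddit4 (chr10:59951721-59952020, minus strand), Egln3 (chr12:54203825-54204124, minus strand) and P4ha1 (chr10:59323046-59323345, plus strand), a collagen prolyl hydroxylase that fell from 10.51 to 9.18.
Ankrd37: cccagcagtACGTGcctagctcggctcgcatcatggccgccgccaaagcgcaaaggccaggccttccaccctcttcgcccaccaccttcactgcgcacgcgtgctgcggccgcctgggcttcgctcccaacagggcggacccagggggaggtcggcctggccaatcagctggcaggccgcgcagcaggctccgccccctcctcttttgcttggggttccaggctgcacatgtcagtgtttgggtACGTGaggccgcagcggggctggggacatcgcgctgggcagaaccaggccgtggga
Ddit4: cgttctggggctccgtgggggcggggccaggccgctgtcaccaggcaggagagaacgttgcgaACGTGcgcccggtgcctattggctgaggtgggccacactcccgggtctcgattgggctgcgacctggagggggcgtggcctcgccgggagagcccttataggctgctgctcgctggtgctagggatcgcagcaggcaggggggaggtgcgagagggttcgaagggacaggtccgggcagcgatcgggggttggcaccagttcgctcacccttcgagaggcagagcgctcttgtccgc
Egln3: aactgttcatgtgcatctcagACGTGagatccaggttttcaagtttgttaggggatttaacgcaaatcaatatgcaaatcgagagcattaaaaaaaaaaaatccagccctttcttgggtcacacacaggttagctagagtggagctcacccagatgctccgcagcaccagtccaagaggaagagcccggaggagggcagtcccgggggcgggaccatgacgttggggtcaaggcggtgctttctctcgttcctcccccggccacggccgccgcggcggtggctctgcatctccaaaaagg
P4ha1: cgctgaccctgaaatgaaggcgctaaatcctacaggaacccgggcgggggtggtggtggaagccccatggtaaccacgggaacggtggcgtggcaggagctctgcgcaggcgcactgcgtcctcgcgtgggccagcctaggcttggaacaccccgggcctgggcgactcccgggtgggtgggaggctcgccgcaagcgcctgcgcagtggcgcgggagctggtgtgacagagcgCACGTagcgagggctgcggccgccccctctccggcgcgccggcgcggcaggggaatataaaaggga
In P4ha1 the letters read on the opposite strand, as CACGT.

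Of 32 pluripotency genes, 11 rose and 1, Lin28a, fell, with a median of 0.57. Esrrb rose from 9.59 to 11.55, Tdh, a threonine dehydrogenase of ES cells, from 9.51 to 11.51, Dnmt3l from 8.71 to 10.48 and Dppa5a from 13.15 to 14.79. None of these reached its ES level, which was 15.19 for Esrrb. Ago-RNA rose with them, by 2.50 for Esrrb and 2.21 for Tdh. Pou5f1 and Nanog did not rise. Zfp42 (Rex1), 8.71 to 9.76, and Utf1, 9.47 to 10.58, passed 2-fold by a margin that some scalings removed.

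Ago-RNA, measured on separate arrays of the same stages, moved with total RNA. Over 15204 genes measured in both, the changes had a Pearson correlation of 0.77, a description across genes, which are not independent replicates. Of 990 genes that rose in total RNA and were measured in Ago-RNA, 930 changed in the same direction there and 782 by at least 2-fold, with a median of 1.69. Of 807 that fell, 795 changed in the same direction and 439 by at least 2-fold, with a median of -1.05. Direction was shared by nearly all of both sets. Over all 15204 genes, 1605 rose in Ago-RNA and 1187 fell. Among mitosis genes the median Ago-RNA change was -0.43, against -0.70 in total RNA, and among DNA replication genes -0.03, against -0.58.

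**Figure D4:**
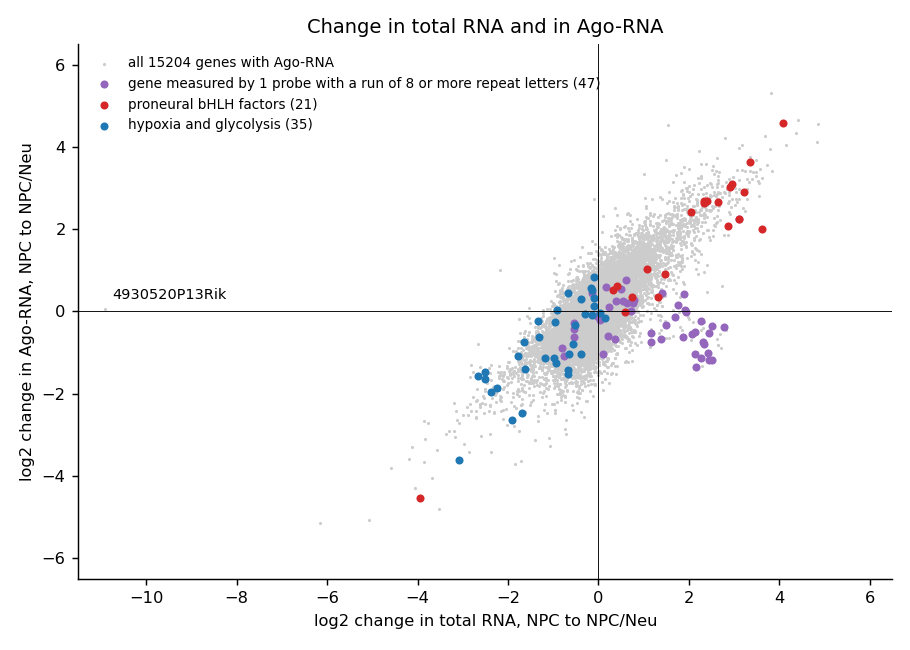
Each point is a gene, placed by its log2 change from NPC to NPC/Neu in total RNA (x axis) and in Ago-RNA (y axis). Red and blue points are 2 gene lists, and purple points are genes measured by 1 probe that holds a run of 8 or more letters of the CCCTAA repeat. Proneural and hypoxia genes lie along the diagonal, whereas most purple points with a total RNA rise lie at or below 0 for Ago-RNA; 4930520P13Rik is far to the left.

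A set of rises in total RNA had no counterpart in Ago-RNA, and their probes shared letters. The telomere repeat of vertebrates is TTAGGG on the strand that runs toward the chromosome end and CCCTAA on the other. The 60 bases of each probe were searched for the longest run of letters that could be cut from an endless CCCTAA repeat in any phase. Of 54433 probes with runs of 6 or fewer, 3.48% were at least 2-fold higher in NPC/Neu. The share was 14.6% of 501 probes with a run of 7, 39.3% of 89 with a run of 8, 74.3% of 35 with a run of 9 and 64.3% of 14 with a longer run. On the Ago-RNA arrays the same 5 shares were 5.35%, 4.39%, 1.12%, 2.86% and 0%. The median log2 signal of the probes with a run of 9 was 9.89 in NPC/Neu total RNA, and between 6.99 and 8.48 on the other 7 arrays.

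For runs of the reverse complement, TTAGGG, the shares were 3.68% at 6 or fewer, 6.74% of 356 probes with a run of 7, 1.43% of 70 with a run of 8, 17.6% of 17 with a run of 9 and 14.3% of 14 with a longer run, the last 2 being 3 and 2 probes. The median change of probes with a run of 9 was -0.02 for the complement, against 2.16 for the letters as printed on the probe. The following 4 probes for intergenic transcripts show the shared letters, with the longest run in capitals and the array annotation's mm9 positions.
chr5:110506159-110506218: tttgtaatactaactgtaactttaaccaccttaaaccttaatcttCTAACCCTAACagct
chr10:8662780-8662839: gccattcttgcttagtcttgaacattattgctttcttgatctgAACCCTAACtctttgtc
chr9:65664829-65664888: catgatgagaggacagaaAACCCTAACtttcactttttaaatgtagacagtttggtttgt
chr1:64728306-64728365: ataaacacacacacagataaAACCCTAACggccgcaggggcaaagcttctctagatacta
Away from the run these probes have little in common. The first went from 7.13 in NPC to 10.14 in NPC/Neu, with an Ago-RNA change of -0.71. The second went from 6.73 to 9.43, the third from 7.23 to 9.74 and the fourth from 7.26 to 9.48, with Ago-RNA changes of -0.84, -1.07 and -0.32.

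Some of the genes read by such probes rose with them. Of 26 genes with a run of 9 or more in a probe, 17 were at least 2-fold higher at that probe, and of 275 probes of 270 genes with a run of 7 or more, 68 were (24.7%). Nfya, with the longest run (11), changed by 0.37, and Trim68, with a run of 10, by 0.21. Those that rose included genes known from other tissues, such as Vmn1r197, a pheromone receptor (change of 2.52), Krtap12-1, a hair protein (2.43), Cpb2, a liver carboxypeptidase (2.26), and Dsg1c, an epidermal desmoglein (2.77). Their Ago-RNA changes were -1.19, -1.17, -1.14 and -0.38. Both telomerase genes belong here too. Terc, the RNA template of telomerase, which holds repeat letters itself, changed by 1.50 with a run of 9 in its probe, and Tert, the catalytic subunit, by 1.15 with a run of 8, and their Ago-RNA changed by -0.34 and -0.74. The run does not decide each case. Neurod2 has a run of 8 in its probe and rose in Ago-RNA by 2.25. Kctd11, one of 3 genes whose probes passed 2-fold in opposite directions, rose at the probe with a run of 7 (2.15) and fell at the other (-1.61).

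Without all probes that hold a run of 7 or more, a setting added after the data were seen, 975 genes rose and 823 fell. Of the 1028 rises, 53 had no probe left and 974 remained. Past 2.5, 111 rises and 57 falls were left. The effect on intergenic transcripts was larger. With all probes 126 of 3382 rose (3.73%) and 50 fell (1.48%), and without those with a run 101 rose and 50 fell. No list median moved by more than the spot SD. Bcl2l14 and Neurod2, each read by 1 probe with such a run, have no value in that setting, and Kctd11, left with its other probe, went from 0.27 to -1.61. The cause of the signal was not tested.

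**Figure D5:**
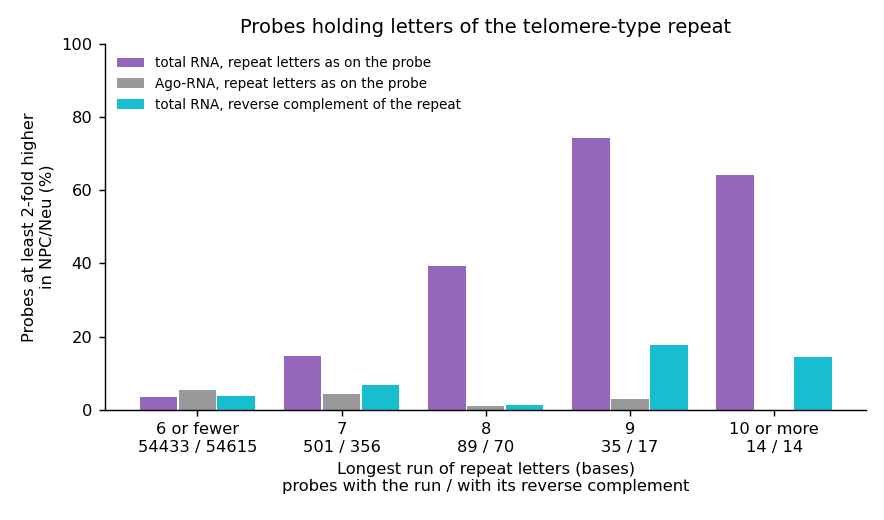
Share of probes at least 2-fold higher in NPC/Neu than in NPC (y axis, %), by the longest run of repeat letters in the probe (x axis, bases, with the number of probes). Purple bars are total RNA and gray bars Ago-RNA for CCCTAA letters as on the probe, and cyan bars total RNA for the reverse complement. The purple share goes from 3.48% to 74.3% at a run of 9, while gray stays at 5.35% or lower.

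Gene structure, which the choice of genes did not use, is given as a description. By GENCODE models of mm9, genes that rose had a median span of 28.0 kb, against 19.7 kb for those that fell and 20.9 kb for all. Of 1996 genes over 100 kb long, 12.63% rose and 4.81% fell, whereas of 4635 genes under 10 kb 6.26% rose and 5.16% fell. The channel subunit gene Cacna2d1 is in the first class. The median 3′ UTR was 1307 bases in genes that rose, 722 in those that fell and 954 in all.

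Several probes of a gene were compared where the array has them. Of 4497 genes with more than 1 probe used, 49 had probes whose changes differed by over 2. Gnas, an imprinted locus with several promoters, had probes between -1.67 and 2.72, so its mean change of 0.22 describes no single transcript. Dusp8 had probes at 0.24 and 3.77. The probes that read Cartpt and Id3 lie in introns of the mm9 gene models, as does a probe of Lhx1.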

How the data were processed

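Total RNA of NPC and NPC/Neu cells was measured on 1 Agilent one-color array (SurePrint G3 Mouse, annotated on mm9) each. What the authors deposited is the intensity of each spot and of its surroundings, not normalized, from Feature Extraction 10.7.3.1 per the file headers. The submitters' processing notes name Agilent Feature Extraction 9.1 and limma. RNA of 3 independent experiments was pooled on each array, of which 50 ng was labeled per the labels (the study's methods give another amount), and all 8 arrays shared a slide and a scan.

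Background was removed from non-control spots by limma 3.58.1 (R 4.3.3) with its normexp method and an offset of 50, and irregular spots were dropped. The log2 signals of all 8 arrays were then brought to a common distribution by quantile normalization, which removes any overall difference in RNA content, and spots of a probe were averaged. A gene is the mean of its probes well above background on either array, with RefSeq symbols matched by accession, then symbol, then synonym. Of 55681 probes, 29676 matched. For a gene well above background on 1 array only, the fold is a lower bound against the dimmest signal well above background on the other array, or the gene's own signal there if that is higher. Precision is limited by the number of arrays.

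Groups came from the sample titles. No p-value was computed, since each side is 1 array. Members and gene lists were chosen with earlier results of these data known. Named genes are the 15 largest rises and falls among annotated genes well above background on both arrays with a log2 signal of at least 8, the 8 brightest genes in each direction on 1 array only, extremes and examples of each list, cell type markers, and genes whose probes disagree; the other list members named were chosen for their role after their values were seen, and some genes the rule names are not reported here. Gene spans are from GENCODE vM1 on NCBIM37 (mm9), promoters from RefSeq on GRCm38.p6. The procedure was tested on simulated data. Computations used Python 3.11.15, numpy 2.4.6 and pandas 2.3.3. The alternatives tried were another offset, the processed intensity, other scalings, other filters on dim probes, the brightest probe of a gene, and leaving out probes with repeat letters.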

Additional observations from a re-analysis of the deposited data

How the results depend on the processing

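No sign of a gene named by the rule that passed 2-fold turned under the 8 alternatives or without probes holding repeat letters, and of 137 such genes 10 fell short of 2-fold under some alternative. The size of a change was less stable. Of 1936 values of genes named by the rule under these settings, 390 moved by more than the spot SD, the largest by 3.58. Genes in the text that fell short of 2-fold somewhere were Zfp42, Utf1, Ago4, Cdkn1c, Etv5, Tgfb2, Scamp5 and Syt1 under another scaling, Dcc and Lin28b with the brightest probe, and Bmp4 without a filter on dim probes. Depth is unknown for intensities, and 1 array a side limits every value. No paired analysis was possible because each group is a single array and the result comes from no test.

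The processed intensity, scaled to the 75th percentile, gave 1597 rises and 1455 falls by 2-fold, and 408 and 217 past 2.5. Quantile normalized, it gave 1646, 1619, 389 and 232. Median scaling gave 75 rises past 2.5, and its median of all genes was -0.175. The cause of these differences was not tested.

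List medians that moved by more than the spot SD were as follows. With the processed intensity scaled to the 75th percentile they were 0.70 (oligodendrocyte lineage), 2.75 (proneural), 1.17 (synaptic), 0.73 (transmitter identity), 1.14 (receptors), 1.37 (channels), 0.48 (Hox), -0.83 (DNA replication), 0.81 (FGF), -1.15 (hypoxia and glycolysis), 0.72 (blood), -0.58 (ribosomal), -0.30 (oxidative phosphorylation) and -0.40 (histones). With the quantile normalized processed intensity they were 0.60 (oligodendrocyte lineage), 2.84 (proneural), 1.24 (synaptic), 0.70 (transmitter identity), 1.13 (receptors), 1.39 (channels), 1.62 (forebrain), 0.81 (FGF) and -0.95 (retinoic acid).

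With median scaling they were 0.22 (neural progenitor), 2.03 (proneural), 1.52 (early neuron), -0.92 (mitosis), -0.93 (DNA replication), 1.24 (REST), 0.28 (cholesterol), 0.064 (fatty acid synthesis), -1.26 (hypoxia and glycolysis), -0.27 (integrated stress), 0.31 (noncoding RNAs), 0.18 (primed epiblast), -0.69 (ribosomal), -0.39 (oxidative phosphorylation) and -0.48 (histones). With probes above background on both arrays they were -0.36 (midbrain and hindbrain), 0.83 (Hox), 1.17 (REST), 0.78 (FGF) and -0.84 (retinoic acid). Without a filter on dim probes they were 0.11 (radial glia), 0.21 (receptors), 0.36 (channels), 0.85 (forebrain), 1.21 (REST) and 0.11 (blood), where probes at background enter. The brightest probe gave 0.83 for splicing regulators. Leaving out probes with repeat letters moved 0 list medians by more than the spot SD.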

Other observations

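Further lists are given by their counts, to be read beside the shares over all genes, of which 6.43% rose and 5.13% fell. Of 36 genes of cholesterol synthesis and uptake, 3 rose and 1 fell, with a median of 0.58. The exporters Abcg1 (8.78 to 11.23) and Abca1 (7.69 to 9.23) rose, and the synthesis enzyme Hmgcs1 stood at 17.22 and 17.87. Of 23 Notch pathway genes, 4 rose and 2 fell, with a median of 0.30, the ligands Dll3 (12.23 to 14.13) and Dll1 (12.30 to 13.70) among the rises and the target Hey1 (12.62 to 11.52) among the falls. Of 18 radial glia and astrocyte genes, 5 rose and 2 fell, with a median of 0.35. The nuclear factors Nfib (8.87 to 11.41) and Nfix (7.31 to 9.46) rose, while Sparcl1, a secreted matrix protein, fell from 13.55 to 10.77. Of 12 oligodendrocyte lineage genes, 3 rose and 2 fell, with a median of 0.21. Olig1 (7.32 to 8.78) and Olig2 (7.75 to 9.31) rose, whereas Pdgfra fell from 9.93 to 7.63.

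Immediate early genes went both ways, with 6 rises and 7 falls among 26. Jun (13.86 to 15.54) and Klf6 (12.90 to 14.74) rose, and Ccn2 (14.39 to 11.98) and Ccn1 (12.87 to 10.37), targets of YAP, fell. Of 41 imprinted genes, 6 rose and 3 fell, led by Dlk1 (9.66 to 12.54) and Gatm (9.30 to 7.19). Meg3, a noncoding RNA of the same locus as Dlk1, rose from 12.08 to 13.86 in total RNA, and its Ago-RNA change was 0.00. Among 29 replication-dependent histone genes, 5 rose and 1 fell. H2aw (11.01 to 13.74), H2ac18 (9.17 to 12.02) and H2bu2 (12.36 to 14.95) rose past 2.5 while the list median was -0.03. Of 34 genes of collagen, laminin and fibronectin, 5 rose and 5 fell, with Col6a1 (8.17 to 10.00) among the rises and Col2a1 (15.27 to 13.09) and Lama5 (13.32 to 11.85) among the falls. Of 28 crest and mesenchyme genes, 7 fell and 4 rose, and of 20 choroid plexus and ciliated cell genes 4 fell and 0 rose.

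With the processing used here, the embryonic hemoglobin gene Hbb-y was the 1 of 16 blood, endothelial and microglial genes that rose, against 6.43% of all genes. In other ways of processing, 1 to 7 of these genes rose and 0 to 2 fell. Hbb-y went from 7.08 to 9.45, and its Ago-RNA rose by 2.50.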
